A study of Mus musculus with 6 samples.

Results

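The high-affinity IgE receptor and the proteins that act directly behind it were examined at the level of their RNA in bone marrow-derived mast cells (BMMCs) from the mouse strains BALB/c and C57BL/6. They are 33 genes listed by symbol for their known roles: 3 receptor subunits, 11 kinases, 12 adaptors and exchange factors, 2 phospholipases C, 3 phosphatases and 2 ubiquitin ligases. All 33 were found among the 35293 genes to which the transcripts of the files could be matched. Of these, 32 were among the 12458 genes with enough reads to be tested, and Fgr, a Src family kinase, had 0 reads in all 6 libraries.

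BMMCs are mast cells grown in culture from bone marrow. Marrow of naive wild type BALB/c mice and naive wild type C57BL/6 mice was cultured in the same medium, supplemented with stem cell factor, IL-3, IL-9 and TGF-β1, and RNA was sequenced on day 20. The strains have 3 libraries each, named S9, S10 and S11 for BALB/c and S12, S13 and S14 for C57BL/6, which the study describes as biological replicates. The cells were not stimulated through the receptor for these libraries as far as the labels say, so the values are for resting cultures, and the sex and age of the marrow donors are not given in the sources used here.

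On mast cells the receptor is a tetramer. The α chain, encoded by Fcer1a, binds the Fc part of IgE, the β chain, encoded by Ms4a2, amplifies the signal, and a dimer of the γ chain, encoded by Fcer1g, carries the activation motifs that it shares with other Fc receptors. When antigen crosslinks bound IgE, the Src family kinase Lyn phosphorylates the β and γ chains and Syk is recruited and activated. Syk phosphorylates the membrane adaptors LAT and LAT2 and the cytosolic adaptor SLP-76 (gene Lcp2), phospholipase Cγ produces the messengers that release calcium and activate protein kinase C, and Fyn and the adaptor Gab2 lead to phosphoinositide 3-kinase. Phosphatases such as SHIP-1 (Inpp5d) and SHP-1 (Ptpn6), and the ubiquitin ligases Cbl and Cbl-b, limit the response.

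Between 28271157 and 37098550 reads per library were assigned to genes, and the 33 genes together took between 1.02% and 1.07% of them. The 9 mast cell markers that are not members were all tested, and their summed level was 33187 to 37129 TPM in BALB/c and 32437 to 35489 TPM in C57BL/6 (TPM is a level per transcript length, scaled to the same total in every library). Of these 9, Tpsb2 and Hdc were over 2-fold higher in C57BL/6 (log2 fold change 2.32 and 1.19), Kit was higher by 0.14, Cma1 and Mitf were lower (-0.43 and -0.23), and Cpa3, Gata2, Il1rl1 and Srgn did not pass. Of the 8 basophil markers, 4 (Mcpt8, Prss34, Cebpa and Ccl9) were over 2-fold higher in C57BL/6 and Ms4a3 was higher by less, Il18r1 was lower (log2 fold change -0.54, edgeR adjusted p = 0.00415), Cd200r3 and Itga2 did not pass, and the list summed to 515 to 530 TPM in BALB/c and 640 to 668 TPM in C57BL/6. Of the 8 macrophage markers, Adgre1 and Cd68 were higher in C57BL/6, the defining genes C1qa, C1qb, C1qc and Csf1r had 0 reads in every library, and the list summed to 0.937 to 1.77 TPM against 8.34 to 9.72 TPM. Neutrophil markers reached at most 4 reads and B cell markers at most 6 reads in a library, and of the 6 T or NK cell markers Cd3e, Cd3g and Cd4 had 0 reads, Lck 2 to 14 and Zap70 2 to 19 reads, and Ncr1 120 to 204 reads without passing the test (that list summed to 5.77 to 6.54 TPM in BALB/c against 4.64 to 5.22 TPM). Basophils also carry the IgE receptor, and the part of the basophil and macrophage markers in the differences given here was not tested. In bulk RNA, fewer cells of a type and less RNA per cell cannot be told apart.

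To show where the receptor subunits Fcer1a and Ms4a2 and the genes with the largest falls in C57BL/6 begin, the bases just upstream of their start sites are given. Each sequence is read 5′ to 3′ in the direction of the gene from the RefSeq promoter table (assembly GRCm38.p6) and was found once on its chromosome in GRCm39. Bases that lie inside the gene as GENCODE annotates it were left out, so that 250, 250, 196 and 123 bases are shown, and the window of the third subunit, Fcer1g, which lies wholly inside that gene, is not. The windows of Fcer1a (chr1:173054797-173055046, reverse strand), Ms4a2 (chr19:11601084-11601333, reverse strand), Plcg1 (chr2:160572980-160573175, forward strand) and Rasgrp1 (chr2:117173486-117173608, reverse strand) follow.
Fcer1a: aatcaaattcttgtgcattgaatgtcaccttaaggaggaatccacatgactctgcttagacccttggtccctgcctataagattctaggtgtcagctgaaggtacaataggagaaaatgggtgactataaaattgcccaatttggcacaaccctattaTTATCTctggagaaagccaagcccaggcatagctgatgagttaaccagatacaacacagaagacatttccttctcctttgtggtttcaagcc
Ms4a2: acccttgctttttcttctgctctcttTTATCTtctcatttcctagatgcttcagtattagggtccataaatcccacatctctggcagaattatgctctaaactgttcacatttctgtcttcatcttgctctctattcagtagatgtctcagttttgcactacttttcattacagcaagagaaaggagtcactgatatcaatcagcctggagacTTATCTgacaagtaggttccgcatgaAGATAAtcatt
Plcg1: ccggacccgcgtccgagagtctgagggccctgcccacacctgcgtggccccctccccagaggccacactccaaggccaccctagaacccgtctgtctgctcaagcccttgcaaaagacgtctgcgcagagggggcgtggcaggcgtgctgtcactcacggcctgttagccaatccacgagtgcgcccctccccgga
Rasgrp1: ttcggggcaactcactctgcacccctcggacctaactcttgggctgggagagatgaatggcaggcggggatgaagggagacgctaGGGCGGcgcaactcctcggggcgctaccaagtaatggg

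Capitals mark matches, on either strand, to 3 words: AGATAA (bound by GATA factors), GGGCGG (the GC box) and AGGAAG (bound by ETS factors). Fcer1a held 1 AGATAA word and Ms4a2 held 3, and 9.99% of 32851 promoter windows of 250 bases in the table held at least 1, as did 4 of the 34 windows (11.76%) found for 27 of the 33 genes. Rasgrp1 held 1 GGGCGG word, which 13.18% of windows cut to the same 123 bases held. Plcg1 held none of the 3 words in its 196 bases. The 2 subunit windows had a GC content of 42.4% (Fcer1a) and 38.8% (Ms4a2), and those of Plcg1 and Rasgrp1 67.9% and 62.6%. A match describes the letters of the window and is not a measured site.

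Strain differences were spread over the pathway in both directions. In edgeR's quasi-likelihood test 22 of the 32 genes (68.75%) passed an adjusted p under 0.05, beside 52.9% of all genes tested and 54.9% of the 8758 genes at or above the level of the lowest of the 32. In C57BL/6, 14 of the 32 were higher (27% of all genes were) and 8 were lower (25.9% of all genes were). The balance turned with the scaling, to 7 higher and 15 lower with plain library size and to 5 higher and 14 lower on both TPM scales. All genes passed at 62.6% and 63.1% under these settings, so that on the TPM scales the share of the 32 genes lay below that of all genes. The median log2 fold change of the 32 genes was 0.06, beside -0.01 over all genes, and the median absolute log2 fold change was 0.22, beside 0.24. Past both an adjusted p under 0.05 and a change of over 2-fold, 1 gene was higher in C57BL/6 (Fyn; 7.73% of all genes were) and 2 were lower (Plcg1 and Rasgrp1; 5.54% of all genes were). In 25 of the 32 genes all libraries of one strain lay above all those of the other, beside 61.9% of all genes. The 32 genes were chosen with results of these data known, and their share was not tested against that of all genes. Taken gene by gene, 3 libraries against 3 can reach no exact permutation p below 0.1, so the p-values come from the fit over all genes.

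**Figure D1:**
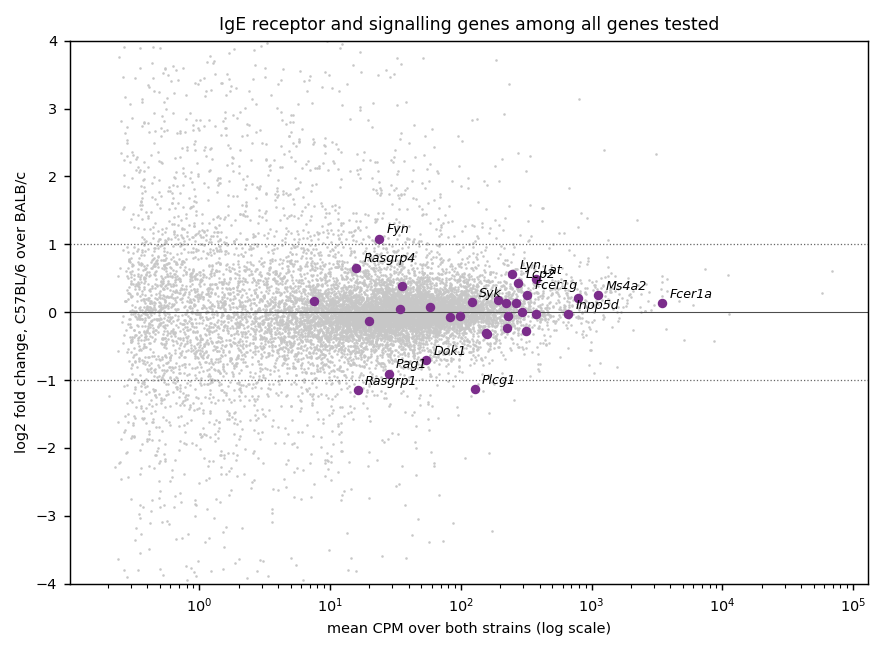
Log2 fold change between the strains, C57BL/6 over BALB/c (vertical axis), against the mean CPM over both strains (horizontal log axis) of each gene tested, with the 32 tested IgE receptor and signalling genes in purple and 2-fold changes as dotted lines. Fyn lies above the upper dotted line and Plcg1 and Rasgrp1 lie below the lower one; 269 other genes lie beyond the limits of the vertical axis at 4 and -4.

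How firmly each change can be read depends on the scaling of the libraries. The main fit uses TMM factors, which place the median gene near 0. Where reads are scaled to the library total alone, or on the TPM scale, the median of all genes moves to between -0.15 and -0.18, and small rises in C57BL/6 shrink or turn. In 12 genes (Lyn, Fyn, Csk, Prkca, Prkcd, Lat, Lcp2, Dok1, Pag1, Rasgrp1, Plcg1 and Ptpn6) the call at an adjusted p under 0.05 and the direction held in all 18 alternatives run. They include all 8 genes lower in the main fit, but of the 14 higher only Lyn, Fyn, Lat and Lcp2. The share of all genes that hold in this way was not computed, so whether 12 of 32 is unusual is not known.

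**Figure D2:**
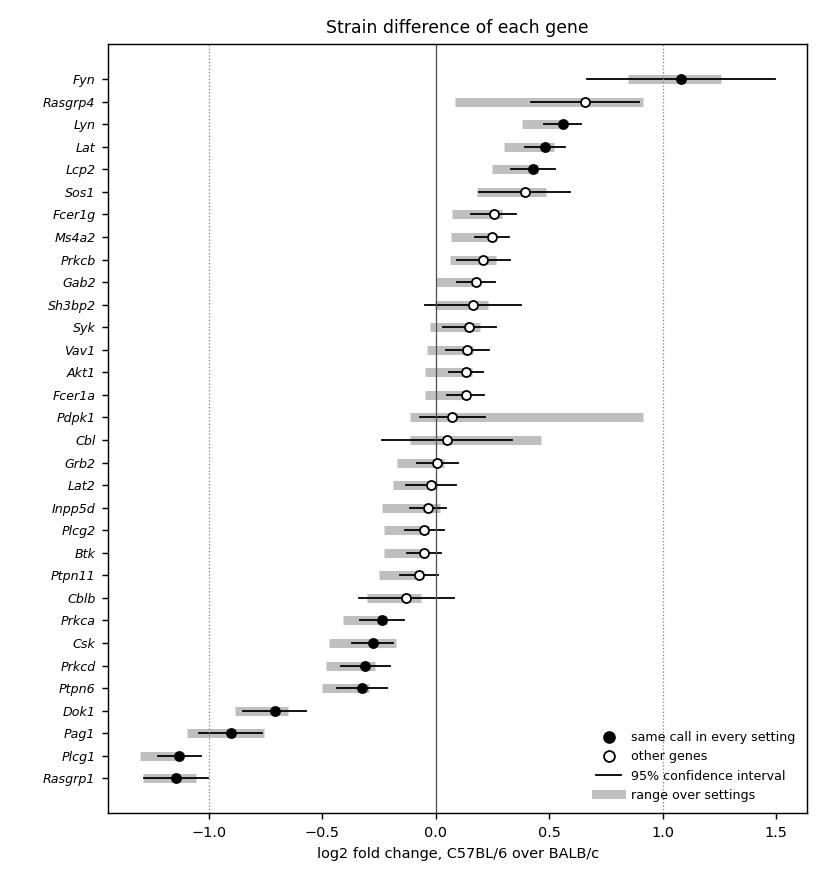
Log2 fold change between the strains, C57BL/6 over BALB/c, for the 32 tested genes (horizontal axis), with the 95% confidence interval as a line and the range over the alternative settings as a grey bar; dotted lines mark 2-fold changes. Filled points are the 12 genes whose call held in every setting, from Rasgrp1 at -1.15 to Fyn at 1.08.

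The 3 receptor subunits were the most abundant of the 33 genes, and their strain differences were small. Fcer1a (ENSMUSG00000005339.11, chr1:173048851-173054781 in GRCm39) was first, with 5550 ± 103 TPM in BALB/c and 5374 ± 124 TPM in C57BL/6 (SD, n = 3). Fcer1g (ENSMUSG00000058715.13, chr1:171057141-171062219) followed at 881 ± 38.5 and 925 ± 7.14 TPM, and Ms4a2 (ENSMUSG00000024680.14, chr19:11592887-11601083) at 575 ± 18.2 and 603 ± 13.7 TPM. On this scale per length the strains overlapped in all 3 subunits.

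On the CPM scale, which relates reads to the TMM-corrected library total, Fcer1a read 3189, 3334 and 3402 in BALB/c, and in C57BL/6 it read 3641, 3705 and 3529. The strains did not overlap on this scale, and C57BL/6 was 9.57% higher (log2 fold change 0.13, SE 0.04, 95% confidence interval 0.05 to 0.21, edgeR adjusted p = 0.0127). That rise is opposite in sign to the TPM means above, and the log2 fold change of Fcer1a ran from -0.05 to 0.15 over the alternatives, so its direction rests on the scaling. Ms4a2 read 1057, 1021 and 1023 CPM in BALB/c and 1233, 1249 and 1200 CPM in C57BL/6, 18.7% higher (log2 fold change 0.25, SE 0.03, edgeR adjusted p = 0.000257). Fcer1g read 283, 310 and 292 CPM in BALB/c and 343, 361 and 352 CPM in C57BL/6, 19.4% higher (log2 fold change 0.26, SE 0.04, edgeR adjusted p = 0.00104). Both kept 1 direction in all alternatives, but on log2(TPM + 1) their differences were 0.07 each with adjusted p of 0.141 and 0.148 in limma, and Fcer1g also lost its call with plain library size (edgeR adjusted p = 0.0509).

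**Figure D3:**
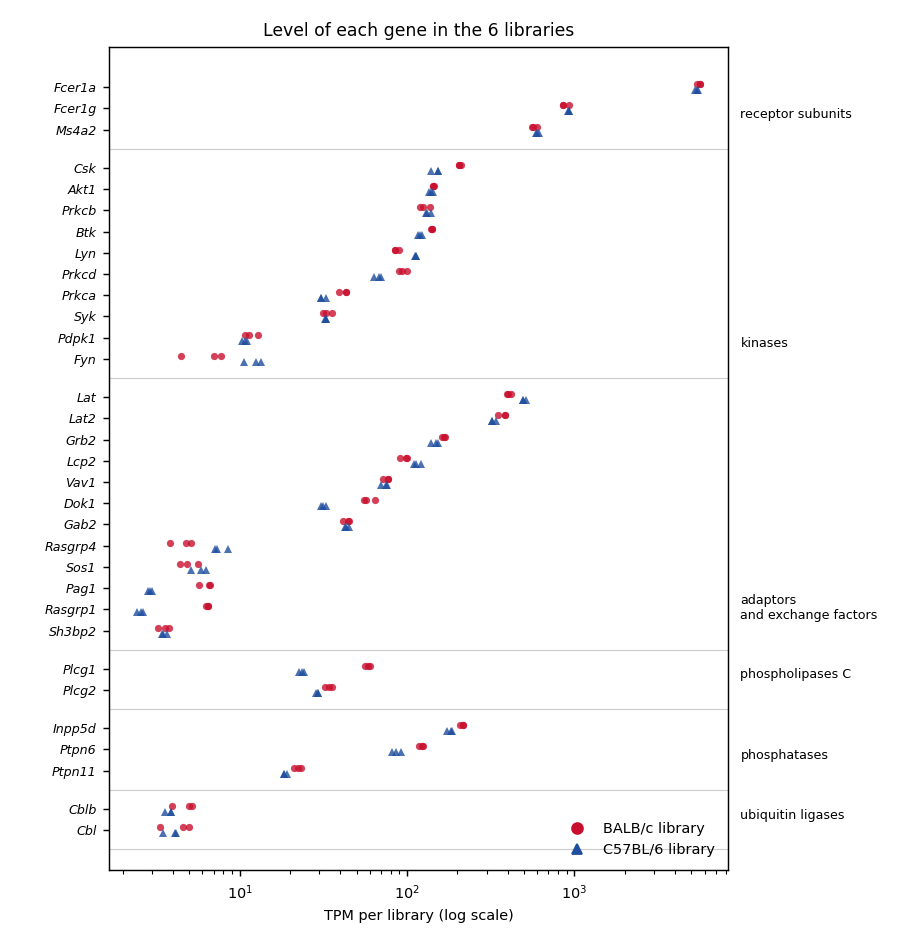
TPM of each gene with reads in each of the 6 libraries (horizontal log axis), grouped by role, with BALB/c libraries as red circles and C57BL/6 libraries as blue triangles. The 3 receptor subunits lie to the right of all other genes, and Plcg1 and Rasgrp1 show the widest gaps between the strains with BALB/c to the right.

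The ratio between subunits moved little. The level of Fcer1a was 9.66 ± 0.476 times that of Ms4a2 in BALB/c and 8.91 ± 0.0631 times in C57BL/6 (ratio of TPM, SD, n = 3), and the level of Fcer1g was 0.159 ± 0.00628 and 0.172 ± 0.00497 times that of Fcer1a. Neither pair of ranges overlapped. These ratios need no scaling between libraries, since both genes come from the same library, but they still rest on how Salmon divided the reads between transcripts.

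Among the kinases at the receptor, the Src family genes Lyn and Fyn were both higher in BMMCs of C57BL/6 mice. Lyn, which phosphorylates the receptor chains, read 203, 195 and 199.6 CPM in BALB/c and 288, 298 and 295 CPM in C57BL/6. All C57BL/6 libraries were above all BALB/c libraries, by 47.4% in the fit (log2 fold change 0.56, SE 0.04, edgeR adjusted p = 2.18e-06). A pseudogene, Gm11787, shares 13.64% of the 31-base words of Lyn, the largest such share among the 33 genes. Fyn (chr10:39244851-39442227 in GRCm39), which signals through Gab2, was lower in level per length and more variable, at 16.5, 10.5 and 18.6 CPM in BALB/c and 27.6, 36.6 and 33.2 CPM in C57BL/6. Its C57BL/6 libraries were all above its BALB/c libraries, 2.12-fold in the fit (log2 fold change 1.08, SE 0.18, 95% confidence interval 0.67 to 1.497, edgeR adjusted p = 0.000954). The change was past 2-fold only narrowly, and its log2 fold change was 0.88 without library S10, the lowest of the BALB/c libraries, and 0.99 without library S13, the highest of the C57BL/6 libraries. Per length, Lyn was 14.2 ± 4.23 times the level of Fyn in BALB/c and 9.35 ± 1.22 times in C57BL/6, and the ranges did not overlap by a narrow margin (lowest BALB/c ratio 10.9, highest C57BL/6 ratio 10.7).

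Csk, the kinase that holds Src family kinases in their inactive state, went the other way. It read 342, 352 and 346 CPM in BALB/c and 288.5, 274 and 295 CPM in C57BL/6, and fell by 17.6% (log2 fold change -0.28, SE 0.04, edgeR adjusted p = 0.000312). Pag1, the membrane adaptor that brings Csk to the membrane, was lower as well and is given with the adaptors.

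Syk, the central kinase behind the receptor, differed by less. It read 108, 123 and 116 CPM in BALB/c and 126, 131.5 and 128 CPM in C57BL/6 (log2 fold change 0.15, SE 0.05, edgeR adjusted p = 0.0362). The call was lost in 10 alternatives, among them the fits without S9, S11, S12, S13 or S14 (edgeR adjusted p between 0.0638 and 0.111), and the sign turned in 2 others, so the strains are not clearly separated in Syk. Btk, a Tec family kinase, had means of 235 and 227 CPM (log2 fold change -0.05, edgeR adjusted p = 0.22), with a 95% confidence interval of -0.13 to 0.02. It passed as lower in 5 alternatives, namely plain library size, both TPM scales, curated transcripts only and transcripts of the same version only (log2 fold change -0.09 to -0.23). Akt1 had means of 254 and 279 CPM (log2 fold change 0.13, edgeR adjusted p = 0.00909), a rise whose sign turned on the TPM scale and with plain library size, and Pdpk1, which activates Akt, had means of 56.7 and 59.7 CPM with overlapping strains (edgeR adjusted p = 0.357). Over curated transcripts only, the log2 fold change of Pdpk1 was 0.91 in place of 0.07 (edgeR adjusted p = 0.0609).

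The protein kinase C genes split. Prkca was lower in C57BL/6, at 242 ± 10.4 and 206 ± 4.51 CPM (log2 fold change -0.24, edgeR adjusted p = 0.00144), and so was Prkcd, at 173 ± 9.44 and 139.7 ± 3.67 CPM (log2 fold change -0.31, edgeR adjusted p = 0.000511). Prkcb, the most abundant of the 3 per length, was higher, at 725 ± 53.2 and 838 ± 14.7 CPM (log2 fold change 0.21, edgeR adjusted p = 0.00809), and its call was lost in 3 alternatives. Per length, Prkca was 0.329 ± 0.0172 times the level of Prkcb in BALB/c and 0.235 ± 0.00165 times in C57BL/6, without overlap. By count, 5 of the 10 tested kinases were higher in C57BL/6, 3 were lower and 2 did not pass, beside 27% of all genes higher and 25.9% lower. Of the 5 higher, Akt1, Prkcb and Syk did not pass with plain library size or on the TPM scale.

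**Figure D4:**
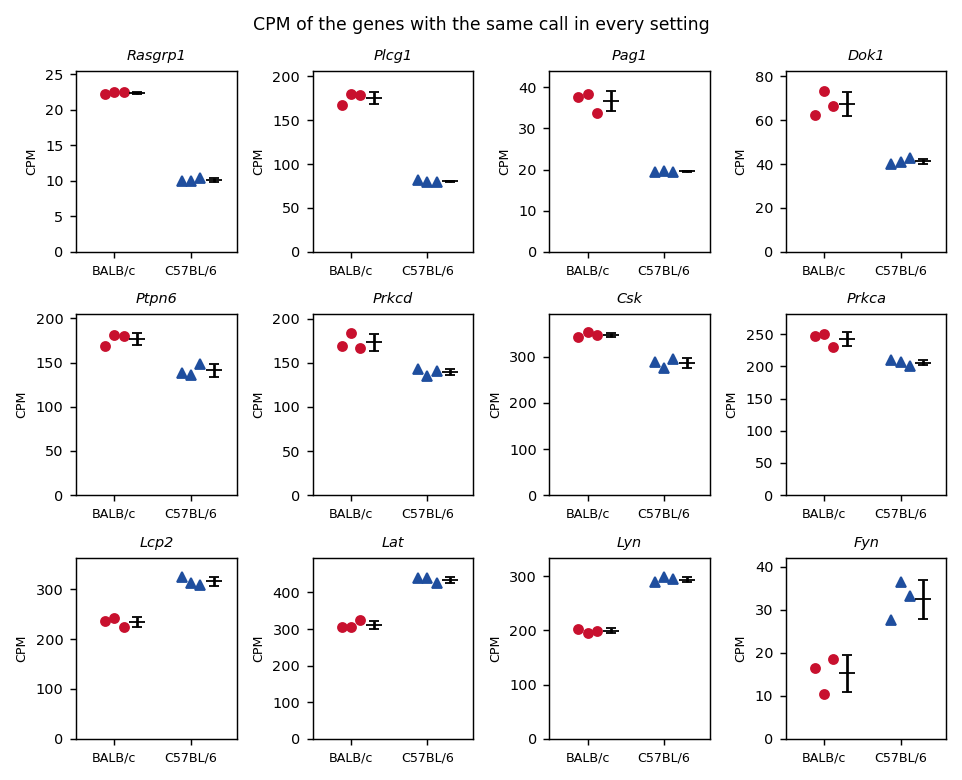
CPM (vertical axes, each from 0) in every library of the 12 genes whose call held in all settings, with BALB/c libraries as red circles, C57BL/6 libraries as blue triangles and the mean ± SD of 3 libraries in black. In every panel the strains do not overlap, with 8 genes lower in C57BL/6 and Lcp2, Lat, Lyn and Fyn higher. The genes were picked by their calls in these same libraries, so the lack of overlap follows largely from that choice. Plain library size and the TPM scales, on which small rises shrink, also tilt the choice towards genes lower in C57BL/6.

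Of the membrane and cytosolic adaptors that Syk phosphorylates, Lat and Lcp2 rose together in C57BL/6. Lat (chr7:125962996-125968810), the scaffold that gathers phospholipase Cγ and Grb2, read 305, 305 and 324 CPM in BALB/c and 440.5, 438 and 426 CPM in C57BL/6. The C57BL/6 libraries were all higher, by 39.6% (log2 fold change 0.48, SE 0.04, edgeR adjusted p = 9.34e-06). Lcp2 read 237, 243 and 224 CPM in BALB/c and 325, 313 and 309 CPM in C57BL/6, 34.6% higher (log2 fold change 0.43, SE 0.04, edgeR adjusted p = 3.46e-05). Lat2, the second membrane scaffold, had means of 376 ± 22.5 and 371 ± 7.97 CPM with overlapping strains (95% confidence interval of the log2 fold change -0.13 to 0.09). The level of Lat per length was therefore 1.09 ± 0.0555 times that of Lat2 in BALB/c and 1.53 ± 0.00268 times in C57BL/6, without overlap.

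Sos1, a guanine nucleotide exchange factor for Ras, read 34.7, 30.03 and 27.6 CPM in BALB/c and 43.3, 36.9 and 40.8 CPM in C57BL/6 (log2 fold change 0.39, SE 0.09, edgeR adjusted p = 0.00492), and its call was lost on the TPM scale. Grb2, which couples Sos1 to the scaffolds, had means of 296 and 297 CPM (edgeR adjusted p = 0.893), but passed as lower with plain library size (log2 fold change -0.14, edgeR adjusted p = 0.0223) and on both TPM scales (-0.17 in each). Gab2 had means of 180.3 and 204 CPM (log2 fold change 0.18, edgeR adjusted p = 0.00307) and Vav1, an exchange factor for Rac, 213 and 234 CPM (log2 fold change 0.14, edgeR adjusted p = 0.0208), and both calls were lost with plain library size and on both TPM scales, where the log2 fold change of Gab2 was between 0.0015 and 0.03 and that of Vav1 turned to between -0.04 and -0.0046. The call of Vav1 was also lost without S10, S12 or S14 (edgeR adjusted p between 0.059 and 0.0867). Sh3bp2, an adaptor for Vav and phospholipase Cγ, was low at 7.05 ± 0.473 and 7.91 ± 0.421 CPM (edgeR adjusted p = 0.176).

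The inhibitory adaptors Dok1 and Pag1 were lower in BMMCs of C57BL/6 mice. Dok1, a docking protein that recruits the Ras inhibitor RasGAP, read 62.3, 73.4 and 66.7 CPM in BALB/c and 40.2, 40.8 and 42.6 CPM in C57BL/6. Every C57BL/6 library was below every BALB/c library, and the level fell by 38.9% (log2 fold change -0.71, SE 0.06, edgeR adjusted p = 1.37e-05). Pag1 read 37.7, 38.4 and 33.8 CPM in BALB/c and 19.4, 19.7 and 19.5 CPM in C57BL/6, and fell by 46.6% (log2 fold change -0.91, SE 0.06, edgeR adjusted p = 2.76e-06).

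The exchange factors of the RasGRP family, which bind the diacylglycerol that phospholipase C makes and activate Ras, went in opposite directions. Rasgrp1 (ENSMUSG00000027347.21, chr2:117110466-117173485), whose upstream window is printed above, read 22.2, 22.5 and 22.5 CPM in BALB/c and 10.01, 9.94 and 10.4 CPM in C57BL/6. The SD within a strain was 0.163 CPM for BALB/c against 0.227 CPM for C57BL/6, and the strains lay far apart, with C57BL/6 2.21-fold lower (log2 fold change -1.15, SE 0.06, 95% confidence interval -1.29 to -1.01, edgeR adjusted p = 7.3e-07). Rasgrp4, which is largely restricted to mast cells, read 12.4, 14.1 and 10.6 CPM in BALB/c and 18.8, 18.7 and 20.7 CPM in C57BL/6, 57.6% higher (log2 fold change 0.66, SE 0.10, edgeR adjusted p = 0.000691). Per length, Rasgrp1 was 1.41 ± 0.200 times the level of Rasgrp4 in BALB/c and 0.336 ± 0.0222 times in C57BL/6, so the order of the pair was exchanged between the strains. Over curated transcripts alone, an alternative chosen after the data were seen, the ratio was 2.27 ± 0.364 and 0.955 ± 0.0626, still without overlap but near 1 in C57BL/6, and the call of Rasgrp4 was lost (log2 fold change 0.09, edgeR adjusted p = 0.66). Of the 12 adaptors and exchange factors, 6 were higher in C57BL/6, 3 were lower and 3 did not pass, again beside 27% and 25.9% of all genes. On both TPM scales 3 of them were higher (Lat, Lcp2 and Rasgrp4) and 5 lower (Dok1, Pag1, Rasgrp1, Lat2 and Grb2).

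The phospholipases C differed within the pair, with Plcg1 lower in C57BL/6 and Plcg2 near the same level. Plcg1 (ENSMUSG00000016933.19, chr2:160573176-160647426), which is recruited by Lat, read 167, 180.4 and 179 CPM in BALB/c and 81.3, 79.5 and 79.5 CPM in C57BL/6. Its strains did not overlap and C57BL/6 was 2.19-fold lower (log2 fold change -1.13, SE 0.04, 95% confidence interval -1.23 to -1.04, edgeR adjusted p = 6.63e-08). Over all alternatives its log2 fold change stayed between -1.30 and -1.11. Plcg2, the other phospholipase Cγ, had means of 100.1 ± 3.44 and 96.7 ± 0.993 CPM with overlapping strains (log2 fold change -0.05, 95% confidence interval -0.14 to 0.04, edgeR adjusted p = 0.306). Per length, Plcg1 stood at 1.71 ± 0.119 times the level of Plcg2 in BALB/c and at 0.805 ± 0.0177 times in C57BL/6, again with the order of the pair exchanged. The summed level of both was 92.4 ± 1.76 TPM in BALB/c and 52.7 ± 1.23 TPM in C57BL/6.

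Of the phosphatases, Ptpn6 passed the test in the main fit and in all alternatives. Ptpn6, which encodes the tyrosine phosphatase SHP-1, read 168.5, 181 and 180.5 CPM in BALB/c and 138, 136 and 149 CPM in C57BL/6, and fell by 20.1% (log2 fold change -0.32, SE 0.05, edgeR adjusted p = 0.000463). Inpp5d, the lipid phosphatase SHIP-1 and the most abundant of the 3 per length, had means of 673 ± 14.8 and 658 ± 11.6 CPM (95% confidence interval of the log2 fold change -0.11 to 0.05). Ptpn11, which encodes SHP-2 and acts mostly in support of signalling, had means of 85.5 ± 2.35 and 81.2 ± 1.32 CPM (edgeR adjusted p = 0.131). With plain library size and on both TPM scales Inpp5d and Ptpn11 passed as lower in C57BL/6 (log2 fold change -0.18 to -0.25), as did Plcg2, Lat2 and Grb2 (-0.14 to -0.23). Per length, Ptpn6 was 5.51 ± 0.351 times the level of Ptpn11 in BALB/c and 4.62 ± 0.303 times in C57BL/6, without overlap. The ubiquitin ligases Cbl and Cblb did not pass, with Cbl at 34.04 ± 6.59 and 35.04 ± 2.53 CPM and Cblb at 20.9 ± 2.62 and 19.04 ± 0.604 CPM, and their ratio overlapped between the strains. Cblb passed without library S11 (log2 fold change -0.23, edgeR adjusted p = 0.0181) and with plain library size (-0.27, adjusted p = 0.0306), and in no other alternative.

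The 9 ratios above compare genes with like roles and were described without a test, and the strains did not overlap in 8 of them. Ratios of other gene pairs were not computed, so no share over all pairs stands beside this count. Among all single genes tested, 61.9% did not overlap.

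Since the files are at the level of transcripts, the share of each gene that its leading transcript took could be compared. It was taken in the 21 genes with at least 2 transcripts of a mean of 1 TPM or more, and counted as different where the strains did not overlap in any library and the mean shares differed by at least 10 percentage points. By this rule 2 of the 21 genes differed, Rasgrp4 and Pdpk1, beside 9.59% of all 4506 such genes. In Rasgrp4 a predicted transcript of 2347 bases took 34.0%, 25.5% and 28.9% of the TPM in BALB/c and 51.7%, 56.9% and 60.9% in C57BL/6. The curated transcript of 4621 bases stood at 2.72, 2.38 and 2.17 TPM in BALB/c and 2.89, 2.34 and 2.63 TPM in C57BL/6, so the strain difference of Rasgrp4 lay mainly in the predicted transcript. In Pdpk1 the leading curated transcript took 40.1% ± 13.1 in BALB/c and 72.5% ± 19.6 in C57BL/6, a wide spread between libraries of 1 strain.

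Fcer1a showed a smaller shift of the same kind that did not reach 10 points. Its predicted transcript of 1010 bases took 10.4% ± 0.710 of the TPM in BALB/c and 18.8% ± 0.457 in C57BL/6, without overlap, and the curated transcript of 1026 bases took the rest. The curated transcript stood at 4975 ± 65.0 TPM in BALB/c and 4363 ± 114 TPM in C57BL/6. With curated transcripts alone in the fit, the log2 fold change of Fcer1a was -0.0037 (edgeR adjusted p = 0.938). Shifts under 10 points without overlap were not particular to Fcer1a. The leading transcript took 46.8% in BALB/c and 54.6% in C57BL/6 for Inpp5d, and 54.2% and 47.0% for Syk. Csk, Lyn, Prkcb, Btk, Dok1 and Lat shifted by less, also without overlap. The share of all genes with such a shift was not computed.

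**Figure D5:**
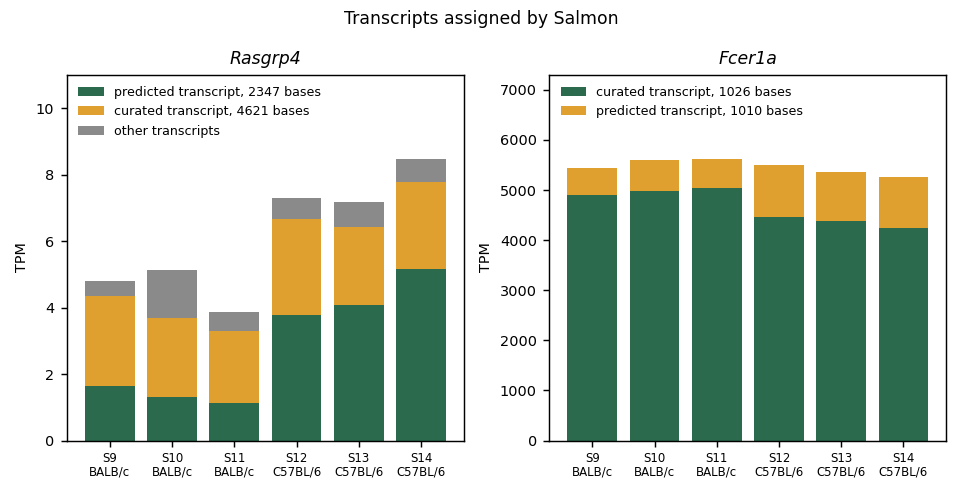
TPM (vertical axes, from 0) assigned to the leading predicted and the leading curated transcript of Rasgrp4 (left) and Fcer1a (right) in the 6 libraries, as stacked bars. The other transcripts of Rasgrp4 are summed in grey. The predicted transcript of Rasgrp4 is larger in all C57BL/6 libraries while the curated one is near the same level in both strains, and the predicted transcript of Fcer1a takes 10.4% in BALB/c and 18.8% in C57BL/6.

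A further 59 genes of the pathway were listed by role, of which 54 were tested. Of these 54, 34 passed an adjusted p under 0.05, 14 higher (beside 27% of all genes) and 20 lower in C57BL/6 (beside 25.9%), and 8 also changed over 2-fold, beside 13.3% of all genes. Higher past both thresholds were Prkch, a protein kinase C (0.0676 ± 0.0367 and 0.745 ± 0.340 CPM), Rasal3, a RasGAP (16.1 ± 4.88 and 54.2 ± 5.48 CPM), and Ptpn22, a tyrosine phosphatase that acts on Src and Syk family kinases (5.92 ± 0.290 and 13.3 ± 0.342 CPM). Prkch had only 1 to 4 reads in each BALB/c library. Among those lower past both were Prkce, a protein kinase C (10.6 ± 1.82 and 4.91 ± 0.40 CPM), the docking protein Dok2 (8.52 ± 0.174 and 3.77 ± 0.739 CPM), Ubash3a (11.6 ± 2.74 and 2.73 ± 0.0933 CPM) and Rgs13 (24.3 ± 5.97 and 2.57 ± 0.732 CPM). Rgs13, a regulator of G protein signalling known to restrain mast cell responses, fell by 3.26 on the log2 scale (SE 0.23, edgeR adjusted p = 3.99e-06), and Ubash3a, a suppressor of signals through tyrosine kinases, fell by 2.09 (SE 0.17, edgeR adjusted p = 1.11e-05).

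The next 6 by size were divided. Grap2, an adaptor that links Lat to Lcp2, fell by 0.99 on the log2 scale (66.9 ± 8.28 and 33.6 ± 1.69 CPM), the lipid phosphatase gene Inppl1 by 0.73 and Clnk, an adaptor of the Lcp2 family, by 0.58 (243 ± 7.79 and 162 ± 1.24 CPM). The kinase gene Tec was higher by 0.96 (6.44 ± 1.19 and 12.6 ± 1.41 CPM), the phosphatase gene Ptpre by 0.86 and Spred1, an inhibitor of Ras signalling, by 0.64. By role, 2 of the 7 tested further kinases were higher and 4 lower, 6 of 25 adaptors, exchange factors and small GTPases were higher and 8 lower, 1 of 10 MAP kinase pathway genes was higher and 4 lower, and 5 of 12 inhibitors were higher and 4 lower, beside 27% of all genes higher and 25.9% lower.

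Summed by role and per length, the receptor subunits stood at 7006 ± 107 TPM in BALB/c and 6902 ± 132 TPM in C57BL/6 and the adaptors and exchange factors at 1245 ± 21.9 and 1261 ± 37.7 TPM, with overlapping strains in both. The kinases stood at 891 ± 20.3 and 808 ± 21.8 TPM and the phosphatases at 358 ± 6.36 and 286 ± 12.8 TPM, without overlap. The kinase sum took the opposite direction in CPM, at 2364 ± 57.6 and 2489 ± 11.8, whereas the phosphatase sum was lower in C57BL/6 on that scale too, at 935 ± 11.9 and 880.2 ± 17.2 CPM. The sums of the receptor subunits (4637 ± 96.5 and 5204 ± 118 CPM) and of the adaptors and exchange factors (1788 ± 33.4 and 1995 ± 22.7 CPM) did not overlap in CPM. Fgr, at 0 reads, allows up to 3 reads per library, between 0.0798 and 0.111 CPM by the counting error alone.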

How the data were processed

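BMMC RNA of 3 BALB/c and 3 C57BL/6 cultures on day 20 was analysed. The authors prepared strand-specific mRNA libraries, checked the reads with FastQC 0.11.5 and quantified them with Salmon 0.8.2. The deposited tables give, for each transcript and library, an estimated count (often fractional) of reads, and a TPM value, in which the authors' count is divided by effective length and scaled to 1 total per library. The methods name Ensembl GRCm39, whereas the tables list RefSeq accessions. The members and lists were chosen with earlier results of these data known.

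Of 129698 transcripts, 106430 matched a symbol, without accession version, in a RefSeq table (GRCm38.p6, used for names), and the other 23268, with 2.69% to 3.12% of reads, were left out. Estimated counts were summed per gene and rounded. The main test was edgeR 4.0.16 (R 4.3.3, quasi-likelihood, TMM, minimum count 10, strain as the only term, Benjamini-Hochberg adjustment over 12458 genes; biological coefficient of variation 0.0665). CPM uses TMM-corrected totals. P-values cover the spread between these cultures. On simulated counts, edgeR recovered 80 of 100 genes changed 1.5-fold and 94 of 100 changed 2-fold, with 5 false calls in total. The simulation changed a far smaller share of genes than differ here, so it does not check the scaling. Alternatives were DESeq2 1.42.0, a transcript length offset, 3 other scalings, 2 filters, limma 3.58.1 on TPM with a pseudocount of 1 or of 0.1 (log2 scale), 3 transcript maps and each library left out. Every member is named, with full statistics for the subunits, members past both thresholds and 8 further members by absolute log2 fold change. Of the other pathway genes, those past both thresholds and the next 6 were named. A gene that this rule covers is not reported here. Coordinates are those of GENCODE for GRCm39. Words of 31 bases shared with other genes were counted in GENCODE transcripts. Sequences of proteins were not used here.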

Additional observations from a re-analysis of the deposited data

How the results depend on the processing

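Of the 32 tested genes, 12 kept their call and direction in all 18 alternatives, 22 kept 1 direction in all those run for them, and 10 turned sign in at least 1. The same shares over all genes were not computed. The numbers past an adjusted p under 0.05 moved with the scaling: 7 higher and 15 lower with plain library size, and 5 higher and 14 lower in limma on log2(TPM + 1) and on log2(TPM + 0.1), where the median of all genes lay at -0.15, -0.15 and -0.18 and 62.6%, 63.1% and 63.1% of all genes passed. Past both thresholds, 0 genes were higher under those 3 settings, and 0 to 1 with a library left out. The cause was not tested. Signs turned as follows, as log2 fold changes. On log2(TPM + 0.1), Fcer1a was -0.0466, Syk -0.0272, Pdpk1 -0.112, Akt1 -0.0469, Grb2 -0.170, Vav1 -0.0374, Sh3bp2 -0.0032 and Cbl -0.115. On log2(TPM + 1), Fcer1a was -0.0466, Syk -0.0265, Pdpk1 -0.104, Akt1 -0.0466, Grb2 -0.169, Vav1 -0.0369, Sh3bp2 -0.0029 and Cbl -0.0968. With plain library size, Fcer1a was -0.0129, Pdpk1 -0.0712, Akt1 -0.0121, Grb2 -0.137, Vav1 -0.0046 and Cbl -0.0958. With upper-quartile factors Grb2 was -0.0137, and with unmatched transcripts kept -1.3e-05. With curated transcripts only, Fcer1a was -0.0037 and Inpp5d 0.0203, and with transcripts of the same version only Inpp5d was 0.0182. Without turning, Pdpk1 moved from 0.07 to 0.91 and 0.51 under these 2 settings, and Cbl from 0.05 to 0.46 under the latter. With libraries left out, Grb2 ranged from -0.0185 to 0.0356, Lat2 from -0.0718 to 0.0054 and Cbl from -0.105 to 0.166. The share of Rasgrp4 on its predicted transcript differed by 27.1 points in TPM and 21.8 points in estimated counts. Over curated transcripts only, an alternative chosen after the data were seen, the ratio of Rasgrp1 to Rasgrp4 moved from 1.41 to 2.27 in BALB/c and from 0.336 to 0.955 in C57BL/6. No paired analysis was run, since the labels do not say which cultures of the strains, if any, were set up together. Genes of a few reads, such as Prkch, are limited by depth. Cbl had no value with curated transcripts only.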
